A study of Mus musculus with 102 samples.

Results

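The comparison described here set epidermal stem cells of calorie-restricted adult mice collected at ZT16 against those collected at ZT4. ZT, zeitgeber time, counts the hours from lights on, so ZT16 falls in the dark phase, when mice are active, and ZT4 in the light phase. The 11 arrays, of 53 arrays of adult and 49 of aged mice in the series, were chosen by age, diet and time point alone: 5 arrays at ZT16 and 6 at ZT4. All mice, on a C57B6/J background, carried a Per1-Venus BAC transgene, in which a fluorescent protein reports the activity of Per1. The adult mice were 47 to 57 weeks old and had received 30% less food than animals fed freely (calorie restriction, CR) for 25 weeks, after 3 weeks in which their food was cut by 10% per week. For reference, the same pair of time points was taken from aged CR mice of 83 to 97 weeks on the same restriction (4 arrays at ZT16 and 3 at ZT4) and from adult mice given control diet freely (4 arrays at each time point). The design states 4 mice per time point and diet, fewer than the arrays of adult CR at either time point. No label says that each array is a separate animal. The p-values therefore measure only the spread between arrays within groups, estimated over all 24 groups of the series. Animals killed on a given day belonged to 1 time point, so the day of collection and the time point cannot be told apart.

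The circadian clock of mammalian cells is a feedback loop. The activators BMAL1 (gene Arntl), CLOCK and NPAS2 bind E-boxes and switch on the Per and Cry genes, whose proteins then hold the activators back. A second loop, in which REV-ERB proteins (Nr1d1 and Nr1d2) repress and ROR proteins activate Arntl, and a set of output factors (DBP, TEF, HLF) that bind D-boxes, carry the rhythm to other genes. Epidermal stem cells, the basal keratinocytes that renew the skin, keep such a clock, and their DNA synthesis and division are known to follow the time of day in mice.

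The levels are log2 values made by the authors with RMA, and a difference of 1 stands for a doubling. Of the 13 markers of basal keratinocytes listed, 12 were in the table and all 12 were tested, with a mean log2 level of 11.21 to 11.55 over the ZT16 arrays and 11.28 to 11.57 over the ZT4 arrays. The 13 marker lists, of basal and differentiating keratinocytes, hair follicle, sebaceous gland, immune, vascular and other cells, held 96 tested entries, some genes standing in several lists. None passed the test between the time points. Over all tested genes only 0.202% passed, so nothing about the mix of cells is read from this. Several defining markers of other cell types lay under the floor for testing, among them 5 of 8 melanocyte and 4 of 8 endothelial markers. The array medians lay between 5.491 and 5.662. The level of the gene Xist was low on replicates 3 and 5 of both time points and high on the other arrays (values in the closing section). The first principal component of the 11 arrays held 41.8% of their variance, with ZT16 replicate 5 at one end and ZT4 replicate 1 at the other, and the calls below are also given without these arrays.

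Across 13383 tested genes, 27 genes (0.202%) differed between ZT16 and ZT4 at an adjusted p under 0.05 (limma, Benjamini-Hochberg). The 5 genes higher at ZT16 (0.0374%) were the clock genes Arntl, Cry1 and Npas2, the kinase gene Prkca and the ion exchanger gene Slc24a3. The 22 genes lower at ZT16 (0.164%) included Sphk2, an enzyme gene of sphingolipid signalling, the clock genes Dbp and Nr1d2, and 5 genes with roles in cell division. The median difference over all tested genes was -0.01, and 47.4% were positive, so the levels as a whole were close to level. At an unadjusted p under 0.05 there were 1486 genes. The number of calls depended on single arrays. It was 7 without ZT16 replicate 5, 17 without ZT16 replicate 3, 12 without ZT4 replicate 1, 14 without ZT4 replicate 6, 54 without ZT4 replicate 4 and 59 without ZT4 replicate 5. The 22 lower genes became 13 without ZT4 replicate 3. With quantile normalization repeated on the deposited values, 12 of 39 calls were higher at ZT16. Without both arrays at the ends of the first component it was 5, namely Sphk2, Dbp, Nr1d2, Cry1 and Prkca. A fit to the 11 arrays alone, without the spread of the other arrays, called 7 of the 27: Arntl, Cdkn3, Cry1, Dbp, Hdac11, Nr1d2 and Sphk2. Of the 27 genes, 7 were called whichever of the 11 arrays was left out: those 5 together with Cdkn3 and Slc24a3.

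**Figure D1:**
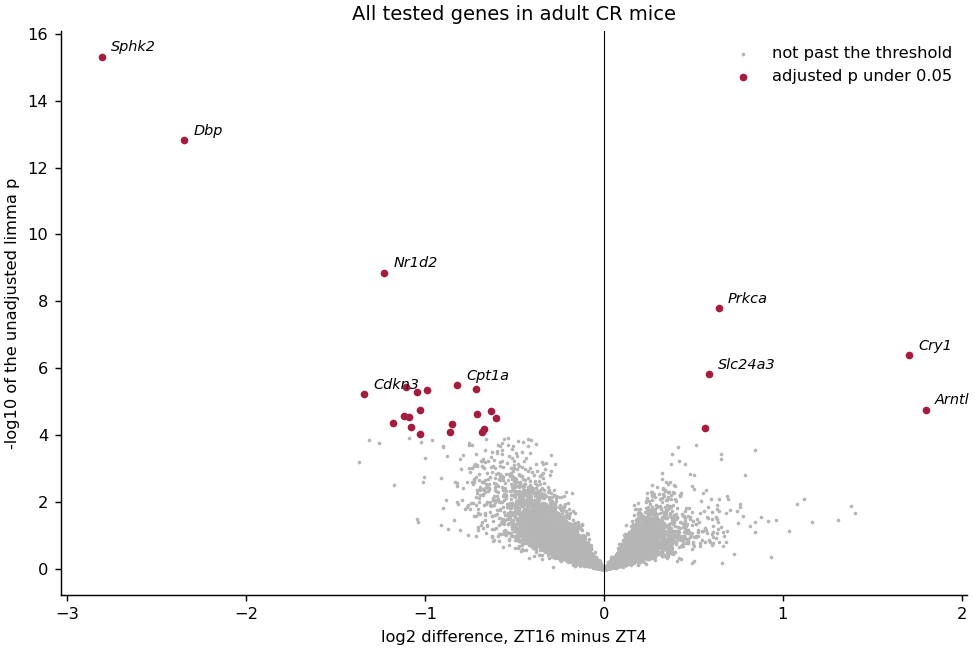
Each point is a gene tested in adult CR mice, with the log2 difference of ZT16 minus ZT4 on the horizontal axis and -log10 of the unadjusted limma p on the vertical axis; red points are the 27 genes with an adjusted p under 0.05. Sphk2 and Dbp lie far to the left, Cry1 and Arntl far to the right, and most genes lie near 0.

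Among the clock activators, Arntl, which encodes BMAL1, was higher at ZT16. Its log2 levels at ZT16 were 8.30, 8.89, 9.07, 9.31 and 8.90, against a lowest, median and highest of 6.35, 7.04 and 7.97 at ZT4. Every ZT16 array lay above every ZT4 array, and the difference was 1.80 ± 0.39 (SE; fold 3.48, adjusted p = 0.0164). The call was lost (largest adjusted p = 0.0744) when ZT16 replicate 3, 4 or 5 or ZT4 replicate 1 was left out. A dimmer probe set of Arntl differed by 0.85 in the same direction.

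Npas2, a partner of BMAL1 that can stand in for CLOCK, had log2 levels of 8.09, 7.91, 7.96, 8.43 and 8.26 at ZT16, against 7.18, 7.60 and 7.86 at ZT4 as lowest, median and highest. The arrays of the time points did not overlap, by a narrow margin, and the difference was 0.57 ± 0.13 (adjusted p = 0.0350). It was called in 6 of the 11 fits that left out 1 array each, and was lost without ZT16 replicate 4 or 5 or ZT4 replicate 1, 2 or 6. Clock itself had 6.78, 6.56, 6.38, 6.38 and 5.99 at ZT16, against 5.35, 6.41 and 6.93 at ZT4. The ranges overlapped fully and the difference of 0.10 ± 0.18 did not pass (adjusted p = 0.849). Rora, an activator of Arntl, differed by 0.17 ± 0.12 (adjusted p = 0.60). All 4 tested members of the activator list were positive, and 2 of 4 passed, beside 47.4% positive and 0.202% passed over all tested genes.

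Among the repressors, Cry1 and Nr1d2 moved in opposite directions. Cry1, which encodes a cryptochrome that blocks CLOCK and BMAL1, had log2 levels of 7.30, 6.92, 6.79, 7.11 and 6.66 at ZT16, against 5.02, 5.15 and 5.56 at ZT4 as lowest, median and highest. The time points were separated by more than 1 log2 unit, with a difference of 1.71 ± 0.31 (fold 3.26, adjusted p = 0.0011). The call held with each array left out in turn.

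Nr1d2, which encodes REV-ERBβ, had log2 levels of 8.22, 8.22, 7.98, 8.35 and 8.44 at ZT16, against 9.19, 9.34 and 9.99 at ZT4. All ZT16 arrays were lower than all ZT4 arrays, by -1.23 ± 0.18 (adjusted p = 6.2e-06), a level 0.427 times that at ZT4. Its second probe set differed by -1.77.

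Per3 and Cry2, a period and a cryptochrome gene, were lower on every ZT16 array than on any ZT4 array without passing the test over all genes. Per3 had 7.58, 7.18, 6.85, 6.67 and 7.36 at ZT16, against 7.78, 8.15 and 8.46 at ZT4, a difference of -1.002 ± 0.27 (adjusted p = 0.0829). With the mean of its probe sets in place of the brightest, Per3 differed by -0.43, and it passed in 3 of 23 alternatives. Cry2 had 7.91, 7.86, 7.53, 8.02 and 7.78 at ZT16, against 8.09, 8.51 and 8.80 at ZT4, a difference of -0.66 ± 0.16 (adjusted p = 0.0535). Cry2 lay close to the threshold and passed it in 9 of 23 alternatives; over all 23 the adjusted p ran between 0.0013 and 0.617.

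The other period genes overlapped between the time points. Per2 had 6.96, 6.59, 6.91, 7.01 and 6.83 at ZT16, against 6.74, 6.98 and 7.25 at ZT4 (difference -0.15 ± 0.16, adjusted p = 0.733). Per1 had 9.07, 9.01, 8.97, 8.92 and 9.28 at ZT16, against 8.76, 9.33 and 9.86 at ZT4 (difference -0.31 ± 0.20, adjusted p = 0.570). Whether the transgene adds to the Per1 signal was not tested. Ciart, an inhibitor of CLOCK and BMAL1, differed by -0.31, Bhlhe40, which competes for E-boxes, by -0.12, and Nfil3, which represses through D-boxes, by 0.60, and none passed (adjusted p of 0.368, 0.850 and 0.361). Of the 9 tested repressors, 1 rose and 1 fell, and 7 of the 9 differences were negative. The shares over all tested genes were 0.202% called and 47.4% positive.

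Dbp, a D-box activator and direct E-box target, had the second largest fall of all genes called. Its log2 levels were 5.95, 6.12, 6.18, 6.27 and 5.50 at ZT16, against 7.42, 8.61 and 9.10 at ZT4 as lowest, median and highest. The groups were more than 1 log2 unit apart even though ZT4 replicates 3 and 4 (7.42 and 7.55) lay below the other ZT4 arrays, and the difference was -2.34 ± 0.27 (0.197 times the ZT4 level, adjusted p = 1.0e-09).

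The related factors Tef and Hlf moved less. Tef had 8.88, 8.94, 8.85, 8.74 and 8.83 at ZT16, against 9.15, 9.35 and 9.49 at ZT4. Its arrays did not overlap, and its difference of -0.48 ± 0.13 missed the threshold (adjusted p = 0.0780), which it passed in 4 of 23 alternatives. Hlf differed by -0.26 ± 0.17 (adjusted p = 0.556).

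**Figure D2:**
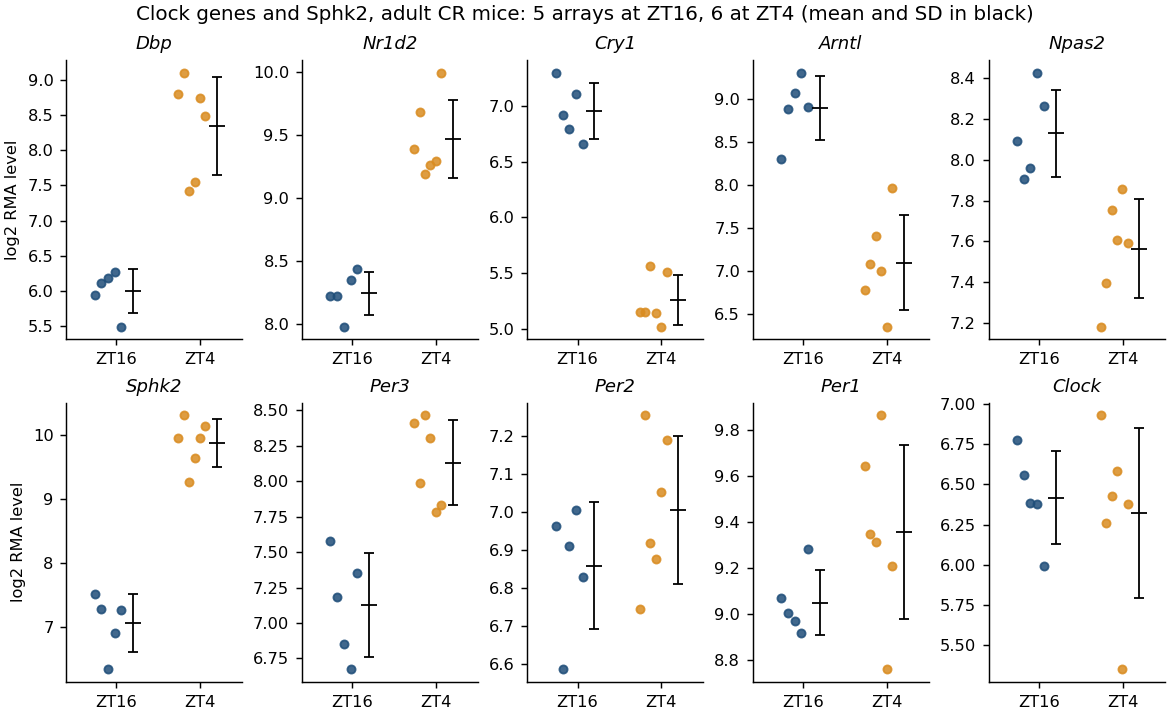
Log2 RMA levels of 9 clock genes and Sphk2 on each array of adult CR mice, 5 at ZT16 (dark blue) and 6 at ZT4 (orange), with the mean and SD in black; vertical axes differ between panels and do not start at 0. Dbp, Nr1d2, Cry1, Arntl, Npas2, Sphk2 and Per3 separate the time points without overlap, while Per2, Per1 and Clock overlap.

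Promoter sequences of the clock genes show which of the clock's own binding motifs stand near their starts. The letters searched on both strands were CACGTG (the E-box), TTATGNAA (the D-box) and TAGGTCA (an element bound by ROR and REV-ERB proteins), in windows of 250 bases before to 50 after each start. Of the 9 clock genes past the threshold in the comparison of time points or in that of diets below, 8 had a promoter in the RefSeq table (build GRCm38.p6), and 4 of these held a motif. The motifs occur in 7.15%, 3.38% and 2.61% of the table's 32851 promoters, for the E-box, the D-box and the ROR and REV-ERB element in that order. No match was found in these windows for Npas2, Dbp, Nr1d2 and Cry2. The stretches are given 5′ to 3′ with the motif in capitals: 30 bases around the element, 30 bases after the second annotated start, for Arntl, and the 250 bases before the first start for the others. The matches describe letters only, and binding was not measured.
Arntl (chr7:113207530-113207559, strand +): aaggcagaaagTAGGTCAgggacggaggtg
Cry1 (chr10:85185055-85185304, strand -): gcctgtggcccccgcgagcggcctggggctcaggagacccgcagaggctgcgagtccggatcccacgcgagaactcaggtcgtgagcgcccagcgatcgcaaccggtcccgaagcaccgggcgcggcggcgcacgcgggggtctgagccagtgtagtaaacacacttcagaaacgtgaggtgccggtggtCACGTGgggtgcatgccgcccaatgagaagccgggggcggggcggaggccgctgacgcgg
Per3 (chr4:151044666-151044915, strand -): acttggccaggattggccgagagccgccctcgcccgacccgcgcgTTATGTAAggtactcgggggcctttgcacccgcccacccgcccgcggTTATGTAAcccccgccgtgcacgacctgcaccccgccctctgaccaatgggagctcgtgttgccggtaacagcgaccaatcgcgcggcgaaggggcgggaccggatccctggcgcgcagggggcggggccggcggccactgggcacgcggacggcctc
Tef (chr15:81802423-81802672, strand +): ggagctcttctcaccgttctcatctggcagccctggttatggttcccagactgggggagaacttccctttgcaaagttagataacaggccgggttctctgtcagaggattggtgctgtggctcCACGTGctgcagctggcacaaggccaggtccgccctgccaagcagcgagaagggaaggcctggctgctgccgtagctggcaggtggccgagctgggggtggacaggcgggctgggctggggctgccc
In Cry1, which rose, the E-box lies at position -60 from the start. Per3 holds 2 D-boxes, at -205 and -158, and Tef an E-box at -127. Arntl and Cry1, which rose together, share none of these motifs in the windows searched.

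Sphk2, which encodes a sphingosine kinase that makes sphingosine 1-phosphate, had the largest fall of all genes called. Its log2 levels were 7.51, 7.28, 6.35, 6.91 and 7.28 at ZT16, against 9.26, 9.95 and 10.30 at ZT4. No ZT16 array came within 1 log2 unit of the lowest ZT4 array, and the difference was -2.80 ± 0.28 (0.143 times the ZT4 level, adjusted p = 6.6e-12). In the RefSeq annotation Sphk2 overlaps Dbp, its neighbour on the chromosome. The second probe set of Sphk2, which is dimmer, differed by only -0.34, so the probe sets of this gene disagreed in size, and their mean differed by -1.57. Whether the brighter probe set reads transcripts of Dbp was not tested.

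Beyond the clock, 2 genes of signalling and ion transport rose. Prkca, which encodes protein kinase Cα, had log2 levels of 7.96, 7.95, 7.77, 8.04 and 7.91 at ZT16, against 7.05, 7.20 and 7.59 at ZT4. The arrays did not overlap and the ZT16 arrays were close together, with a difference of 0.64 ± 0.10 (fold 1.56, adjusted p = 5.3e-05). Slc24a3, a potassium-dependent sodium and calcium exchanger, had 10.21, 10.05, 10.14, 10.58 and 10.37 at ZT16, against 9.44, 9.66 and 10.07 at ZT4. The lowest ZT16 array lay just under the highest ZT4 array, and the difference was 0.59 ± 0.11 (adjusted p = 0.0033).

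Of the genes called, Cdkn3, Aspm, Cenpf, Ccnb2 and Cdc20 have roles in cell division and fell. Cdkn3 and Aspm are in no list and are named for the size of their fall. Cdkn3, a phosphatase of cyclin-dependent kinases, had log2 levels of 6.74, 6.32, 6.71, 6.19 and 6.58 at ZT16, against 7.44, 7.76 and 8.31 at ZT4, a difference of -1.34 ± 0.28 (0.395 times the ZT4 level, adjusted p = 0.0067). Every ZT16 array was below every ZT4 array. Because these are bulk samples, fewer dividing cells and less RNA per dividing cell cannot be told apart.

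Aspm, a protein of the spindle poles, had 5.89, 6.27, 6.45, 6.46 and 6.37 at ZT16, against 6.72, 7.26 and 8.23 at ZT4. Its difference was -1.12 ± 0.25 (adjusted p = 0.0207), with no overlap. Its 2 other probe sets differed by -0.99 and -1.23. ZT4 replicates 1 and 3 had the highest levels, 7.96 and 8.23, and the call was lost when either of them was left out, and also without ZT16 replicate 1 or 5 or ZT4 replicate 6.

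Of the mitosis list, 20 members were tested and 3 fell: Cenpf, a kinetochore protein, Ccnb2, a mitotic cyclin, and Cdc20, an activator of the anaphase-promoting complex. Cenpf had 7.70, 7.46, 7.87, 7.17 and 6.97 at ZT16, against 8.00, 8.50 and 9.09 at ZT4 (difference -1.08 ± 0.25, adjusted p = 0.0350). Its other probe sets differed by -0.81 and, near the floor, by -0.12, and the mean of the 3 by -0.67. Ccnb2 had 6.30, 6.17, 6.22, 6.00 and 5.86 at ZT16, against 6.57, 7.04 and 7.82 at ZT4 (difference -1.03 ± 0.25, adjusted p = 0.0469). Neither gene overlapped between the time points, and in both, ZT4 replicates 1 and 3 were the highest arrays.

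Cdc20 had 7.85, 7.81, 7.77, 8.03 and 7.64 at ZT16, against 8.23, 8.87 and 9.52 at ZT4 (difference -1.03 ± 0.23, adjusted p = 0.0164), with no overlap. Over the whole mitosis list 18 of 20 differences were negative and 12 had an unadjusted p under 0.05, all lower. Among all 13383 tested genes, 0.202% were called, 47.4% of differences were positive and 1486 had an unadjusted p under 0.05. The list's median was -0.42, beside -0.01 over all tested genes. Its genes were read on the same arrays and chosen with earlier results of these data known, so these counts are a description. Without the arrays at the ends of the first component the median was -0.34 and none of the members was called. Cenpf was lost without ZT16 replicate 2, 4 or 5 or ZT4 replicate 1, 3 or 6. Ccnb2 was lost without ZT16 replicate 2, 3, 4 or 5 or ZT4 replicate 1, 3 or 6, and Cdc20 without ZT16 replicate 3 or 5 or ZT4 replicate 1, 3 or 6.

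**Figure D3:**
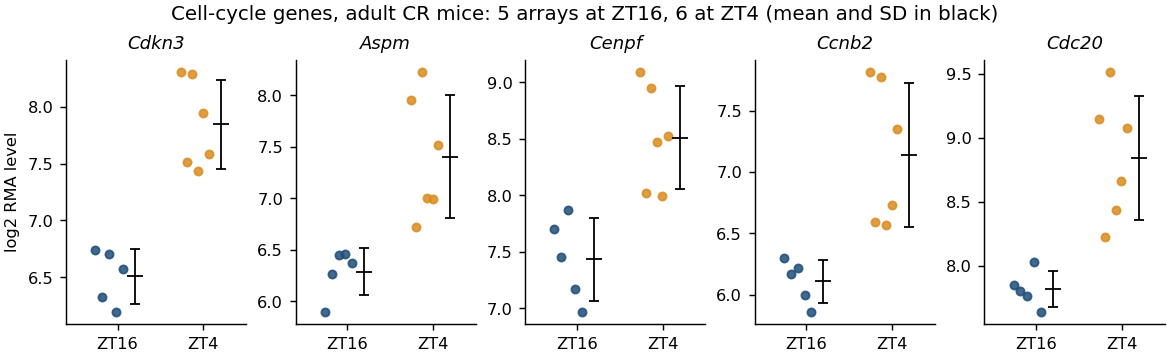
Log2 RMA levels of Cdkn3, Aspm, Cenpf, Ccnb2 and Cdc20 on each array of adult CR mice, 5 at ZT16 (dark blue) and 6 at ZT4 (orange), with the mean and SD in black; vertical axes differ and do not start at 0. The ZT16 arrays lie below the ZT4 arrays in all 5 panels, and the ZT4 arrays are the more spread.

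DNA replication genes moved less as a group. Rfc3, a subunit of the clamp loader that places PCNA on DNA, had 8.76, 8.92, 8.36, 8.38 and 8.36 at ZT16, against 8.63, 9.23 and 9.43 at ZT4. The ranges overlapped through ZT4 replicate 4, the lowest ZT4 array, and the difference was -0.60 ± 0.14 (adjusted p = 0.0222). It was the 1 member called of 25 tested, and 17 of the 25 differences were negative, with a median of -0.15. Among all tested genes, 0.202% were called and 47.4% of differences were positive, with a median of -0.01. Rfc3 was lost without ZT16 replicate 3, 4 or 5 or ZT4 replicate 1, 2, 3 or 6. The DNA repair list had no member called of 17 tested and a median of -0.08.

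Cpt1a, which encodes the carnitine palmitoyltransferase that controls the entry of fatty acids into mitochondria, was lower at ZT16. Its log2 levels were 8.40, 8.50, 8.56, 9.44 and 8.07 at ZT16, against 9.03, 9.43 and 9.77 at ZT4, a difference of -0.82 ± 0.16 (0.566 times the ZT4 level, adjusted p = 0.0058). ZT16 replicate 4, at 9.44, stood among the ZT4 arrays, and the other 4 lay below all of them. The call was lost without ZT16 replicate 5 (adjusted p = 0.0981). Cpt1a was the 1 member called of 15 tested in the fatty acid oxidation list, of which 14 were negative. The unadjusted p was under 0.05 in 7 of them, and the list's median was -0.32, beside -0.01 over all tested genes. Among all 13383 tested genes, 0.202% were called, 47.4% of differences were positive and 1486 had an unadjusted p under 0.05. The list's median was -0.24 without the arrays at the ends of the first component, and none of its members was called.

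The remaining genes among the 12 largest falls were of several kinds. Hdac11, a histone deacetylase gene, had 7.20, 7.22, 6.69, 7.32 and 6.41 at ZT16, against 7.84, 8.11 and 8.19 at ZT4. Its ZT4 arrays were close together, all above the ZT16 arrays, and the difference was -1.11 ± 0.22 (adjusted p = 0.0058); it was lost without ZT16 replicate 5. Arrdc4, an arrestin-domain gene known to respond to glucose, had 6.65, 6.65, 6.31, 7.23 and 6.05 at ZT16, against 7.001, 7.78 and 8.16 at ZT4, a difference of -1.04 ± 0.21 (adjusted p = 0.0063). ZT16 replicate 4 overlapped with ZT4 replicates 3 and 4, and the call was lost without ZT16 replicate 5 or ZT4 replicate 6.

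Ttyh2, a membrane protein of the tweety family, had 6.57, 6.51, 6.37, 6.22 and 6.22 at ZT16, against 6.79, 7.40 and 8.25 at ZT4 (difference -1.09 ± 0.25, adjusted p = 0.0209). It did not overlap, and the call was lost without ZT16 replicate 3, 4 or 5 or ZT4 replicate 1 or 3. Its second probe set differed by only -0.18, and the mean of both by -0.64. Mab21l4 had 6.25, 6.12, 6.27, 7.29 and 6.24 at ZT16, against 6.87, 7.75 and 7.91 at ZT4 (difference -1.18 ± 0.27, adjusted p = 0.0291). Replicate 4 went against its own group at both time points, and the call stood in 3 of the 11 fits, those without ZT16 replicate 4 or ZT4 replicate 4 or 5.

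The other 8 genes called fell outside the rule for named genes and are listed here to account for all 27. They were Rsad1, Wnt3a, Septin9, Sema4a, Cdc42ep1, Lxn, Pwwp2b and St3gal6, all lower at ZT16, by differences of -0.63 to -0.99. They were called in 3 to 10 of the 11 fits that left out 1 array, and none without ZT16 replicate 5. Wnt3a encodes a WNT ligand, Sema4a a semaphorin, Septin9 a septin of the cytoskeleton, Cdc42ep1 an effector of the GTPase CDC42, Lxn a carboxypeptidase inhibitor and St3gal6 a sialyltransferase. Rsad1 had 4.63, 4.48, 4.36, 4.37 and 4.18 at ZT16, all under the floor of 4.735 that its mean over all arrays had to reach, against 4.67, 5.44 and 6.14 at ZT4, so its fall of -0.99 may be understated. In St3gal6, of 3 other probe sets above the floor, 2 differed by 0.17 and 0.03, in the opposite direction, and the dimmest by -0.31; the mean of its probe sets differed by -0.17, against -0.86 for the brightest. Over all 27 genes, 15 had 1 probe set only, and of 17 further probe sets above the floor 15 had the same sign.

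In 19 of the 27 genes the arrays of the time points did not overlap. That held for 177 of all 13383 genes (1.32%), and since the calls come from the same arrays nothing is read from the higher share among them.

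In the 19 remaining pathway lists, with 236 tested entries in all, some genes standing in several lists, no gene passed. Over all tested genes only 0.202% passed, so nothing is read from this. The medians of these lists lay between -0.26 and 0.16, beside -0.01 over all tested genes, of which 47.4% had a positive difference. The lowest was that of the WNT pathway list, with 8 of 9 differences negative; the list does not hold Wnt3a, which was called. Wnt4, a WNT ligand, was lower on all ZT16 arrays (9.28, 9.41, 9.35, 9.14 and 9.45) than at ZT4 (9.71, 9.99 and 10.13), but its difference of -0.63 ± 0.17 did not pass (adjusted p = 0.0800; it passed in 3 of 23 alternatives). The highest was that of the unfolded protein response, with 14 of 16 positive. There the smallest p belonged to Pdia3, a disulfide isomerase of the endoplasmic reticulum, which differed by 0.40 ± 0.13 (adjusted p = 0.198). Cdkn1a, a cell cycle inhibitor listed with the glucocorticoid response, was higher on all ZT16 arrays (11.54, 11.54, 11.74, 11.79 and 11.73) than at ZT4 (11.09, 11.35 and 11.52), with a difference of 0.32 ± 0.13 that did not pass (adjusted p = 0.327). Fosl1, an AP-1 subunit, differed by 0.76 ± 0.30 (adjusted p = 0.321).

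Across the 6 time points of adult CR mice, the time points of the highest and lowest mean of each called gene were counted. Of the 22 genes lower at ZT16, 19 had their lowest mean of the day at ZT16 and 3 at ZT20. Their highest mean stood at ZT8 in 11, at ZT4 in 6, at ZT12 in 3 and at ZT0 in 2. Of the 5 genes higher at ZT16, 4 had their highest mean at ZT16 and 4 their lowest at ZT8. The means at ZT16 and ZT4 entered the comparison, so these positions are a description.

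Dbp, Nr1d2 and Sphk2 had their lowest mean at ZT20 and their highest at ZT8, so by their means neither of the time points compared was an extreme. For Dbp the means at ZT16 (6.00 ± 0.31 SD) and ZT20 (5.86 ± 0.14) were close. Dbp averaged 6.01, 8.35, 9.42, 7.86, 6.00 and 5.86 from ZT0 to ZT20, with an SD of 0.14 to 0.70. Cdkn3 averaged 7.84, 7.84, 7.46, 6.93, 6.51 and 7.22, nearly equally high at ZT0 and ZT4 and lowest at ZT16. Aspm, Cenpf and Cdc20 had their highest mean at ZT4 and their lowest at ZT16. Ccnb2 was highest at ZT0 (7.15), close to its mean at ZT4 (7.14), and lowest at ZT16. Arntl had its highest mean at ZT0 (9.14 ± 0.44 SD) and its lowest at ZT8 (6.42 ± 0.96), and Cry1 its highest at ZT16 and its lowest at ZT4.

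**Figure D4:**
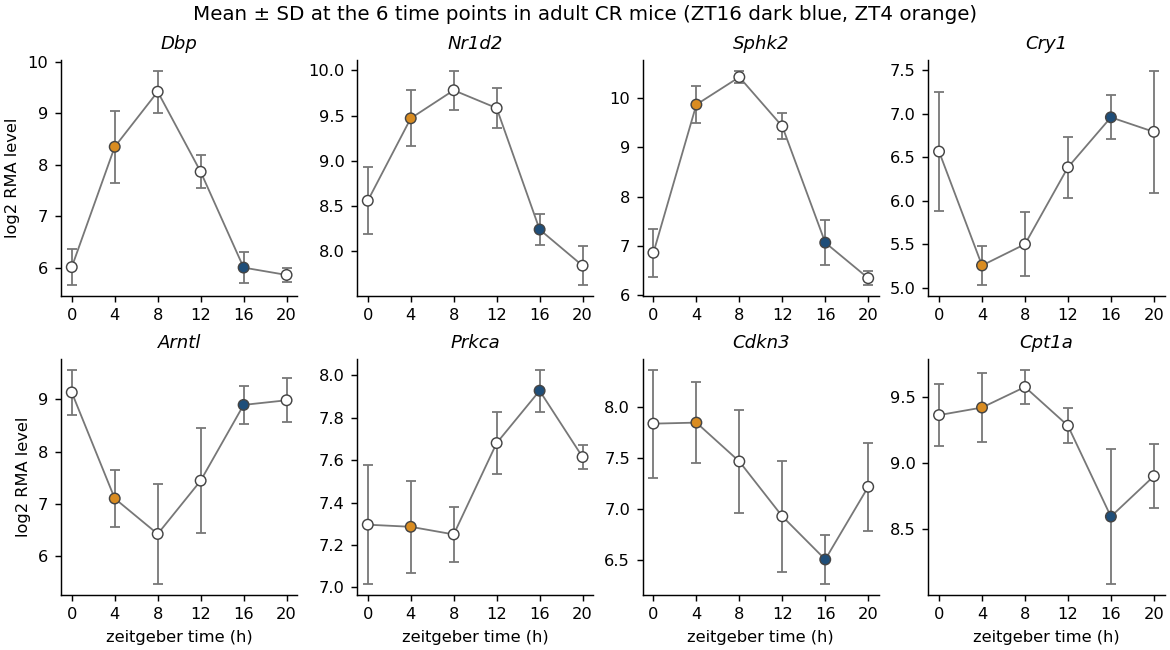
Mean log2 RMA level ± SD of 8 called genes at the 6 zeitgeber times (h) in adult CR mice; the dark blue point is ZT16, the orange point ZT4, and vertical axes differ and do not start at 0. Dbp, Nr1d2 and Sphk2 have their highest mean at ZT8 and Cry1 and Prkca at ZT16, while Cdkn3 is nearly equally high at ZT0 and ZT4.

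The same pair of time points was then compared between diets, which asks whether the difference depends on the restriction. The test was that of the difference of differences, ZT16 minus ZT4 in adult CR minus that in adult control mice. It called 6 of 13383 genes (0.0448%), all with a more negative difference in adult CR: Sphk2, Dbp, Per3, Per2, Tef and Cry2. At an unadjusted p under 0.05 there were 205 genes.

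Of these 6 genes, 5 are clock genes. Per3 averaged 7.13 ± 0.37 at ZT16 and 8.13 ± 0.30 at ZT4 in adult CR (SD, n = 5 and 6), whereas in adult control mice it averaged 8.32 ± 0.38 at ZT16 and 6.81 ± 0.33 at ZT4 (n = 4 each). The time points thus stood in opposite order on the 2 diets, and the difference of differences was -2.51 ± 0.42 (SE, adjusted p = 1.9e-04), or -1.30 with the mean of its probe sets. Tef likewise averaged 8.85 ± 0.07 at ZT16 and 9.33 ± 0.13 at ZT4 in adult CR, against 9.31 ± 0.12 at ZT16 and 8.45 ± 0.16 at ZT4 in adult control mice. The difference of differences was -1.34 ± 0.20 (adjusted p = 1.5e-05).

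Per2 averaged 6.86 ± 0.17 at ZT16 and 7.005 ± 0.19 at ZT4 in adult CR, against 7.47 ± 0.14 at ZT16 and 6.16 ± 0.11 at ZT4 in adult control mice. It was higher at ZT16 by 1.32 on control diet (adjusted p = 7.5e-06), whereas no difference was called in adult CR, and the difference of differences was -1.46 ± 0.25 (adjusted p = 1.9e-04). For Cry2 it was -1.18 ± 0.25 (adjusted p = 0.0247), with 7.82 ± 0.18 at ZT16 and 8.48 ± 0.25 at ZT4 in adult CR, against 8.29 ± 0.43 at ZT16 and 7.76 ± 0.21 at ZT4 in adult control mice. Cry2 was the least firm of the 6, losing its call in 12 of 29 alternatives.

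Dbp and Sphk2 fell at ZT16 in adult CR and were called in neither direction in adult control mice. Dbp averaged 6.00 ± 0.31 at ZT16 and 8.35 ± 0.70 at ZT4 in adult CR, against 7.08 ± 0.50 at ZT16 and 6.72 ± 0.65 at ZT4 in adult control mice, a difference of differences of -2.71 ± 0.41 (adjusted p = 1.5e-05). For Sphk2 it was -3.49 ± 0.43 (adjusted p = 4.7e-08; -1.70 with the mean of its probe sets), with 7.07 ± 0.46 at ZT16 and 9.87 ± 0.37 at ZT4 in adult CR, against 8.78 ± 0.50 at ZT16 and 8.10 ± 0.79 at ZT4 in adult control mice.

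In adult control mice, ZT16 against ZT4 called 9 genes (0.0672%), 4 higher and 5 lower. Of these, 4 were also called in adult CR, which is 14.8% of the adult CR calls and 44.4% of the control calls: Aspm, Cdc20, Cdkn3 and Cenpf, all genes of cell division and all lower at ZT16 on both diets. Cdkn3 differed by -1.34 in adult CR and -1.44 in adult control mice, and Aspm by -1.12 in adult CR and -1.48 in adult control mice. The clock genes Arntl, Npas2 and Nr1d2, called in adult CR, differed by -0.23, -0.23 and -0.03 in adult control mice, and Cry1 by 0.69. None of these was called between the diets, with Nr1d2 the nearest (adjusted p = 0.0837). The mitosis list had a median of -0.42 in adult CR and -0.50 in adult control mice. The DNA replication list had a median of -0.15 in adult CR, 0.41 in adult control mice and 0.265 in aged CR mice. The aged mice on the same restriction thus had the sign of the adult control mice. In adult CR the median ran from -0.22 to -0.03 over the alternatives, and no member of the list was called between the diets.

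Between ages, no gene was called in the test of ZT16 minus ZT4 in adult CR minus aged CR (0%), while 657 had an unadjusted p under 0.05 and the smallest adjusted p was 0.824. The genes of smallest p were Stat3, Il1rl2 and Efnb2, with differences of differences of 0.86 ± 0.22, 0.82 ± 0.22 and 1.01 ± 0.28. Stat3, a transcription factor of cytokine signalling, averaged 10.29 at ZT16 and 9.91 at ZT4 in adult CR, against 9.88 at ZT16 and 10.37 at ZT4 in aged CR. A test that does not pass does not show that the ages are alike.

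In aged CR mice, ZT16 against ZT4 called 51 genes (0.381%), 14 higher and 37 lower. The 7 genes called at both ages were Sphk2, Dbp, Nr1d2, Prkca, Cpt1a, Aspm and Cenpf, which is 25.9% of the adult CR calls and 13.7% of the aged CR calls. All 27 adult CR calls had the same sign in aged CR, and 21 of 27 had it in adult control mice. The share of all tested genes with the same sign was not computed, so nothing is read from these counts. Nr1d2 differed by -1.23 in adult CR and -1.47 in aged CR, and Prkca by 0.64 in adult CR and 0.65 in aged CR. Arntl differed by 1.80 in adult CR and 0.25 in aged CR, where it was not called (adjusted p = 0.782), and the difference between the ages was not called either.

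**Figure D5:**
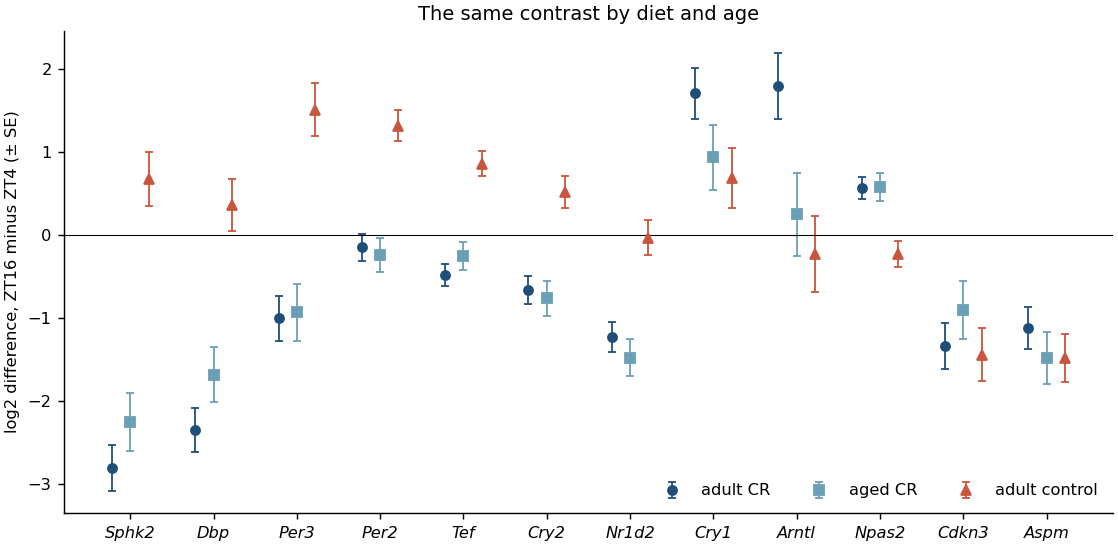
Log2 difference of ZT16 minus ZT4 ± SE for 12 genes, in adult CR (circles), aged CR (squares) and adult control mice (triangles). Sphk2, Dbp, Per3, Tef and Cry2 are below 0 under CR at both ages and above 0 on control diet, while Cdkn3 and Aspm are below 0 in all 3 conditions.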

How the data were processed

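The authors deposited log2 values that were produced by RMA, which corrects background, normalizes quantiles and summarises probe sets; the submitters' processing notes name it without a version. Per the labels' protocols, RNA was amplified before hybridisation. These log2 values were used as deposited, and the number of arrays limits their precision. Of 45140 probe sets, 28898 had a single gene symbol in GEO's platform annotation, and the brightest stood for each gene. Genes with a mean under the 30th percentile of probe set means (4.735) were left out, so that 13383 were tested.

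All arrays of the series, in 24 groups by age, diet and time point, entered 1 linear model fitted with limma 3.58.1 in R 4.3.3, with Benjamini-Hochberg adjustment over all tested genes and a threshold of 0.05. The same fit was run on simulated data in which 200 genes were changed between the time points. It called 58.4% of the changes of 0.6 and 96.6% of those of 1.2, and 5.34% of its calls were false. The noise was drawn independently for each gene and array, so deviations that many genes of an array share were not part of it. Replicate numbers were not taken as pairs.

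Named genes are the 12 largest rises and falls called, all clock genes tested, up to 3 called members (otherwise the 1 of smallest p) of each other list and up to 6 genes called (otherwise 3) per difference of differences. The 38 lists hold 486 genes, of which 401 were tested. The samples compared and the lists were chosen with earlier results of these data known. Alternatives are given in the closing section.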

Additional observations from a re-analysis of the deposited data

Results flagged for a closer look

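Single arrays stood far from the others of their time point for 6 genes in adult CR mice, in 7 of 146 sets of arrays examined; chance gives about 1 in 20. Mab21l4 was at 7.29 on ZT16 replicate 4, where the others lay between 6.12 and 6.27, and at 6.87 on ZT4 replicate 4, where the others lay between 7.59 and 7.91. Of the sets, 3 involved ZT4 replicate 5: Fosl1 was at 8.97 there (others 10.16 to 10.77), Efnb2 at 8.31 (others 9.07 to 9.51) and Msx2 at 6.08 (others 5.80 to 5.89). Acta1 was at 4.77 on ZT16 replicate 1 (others 5.28 to 5.33), and Cdc42ep1 was at 7.01 on ZT16 replicate 5 (others 7.67 to 7.91).

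For 6 genes the difference of ZT16 minus ZT4 was not the same on the 2 diets by the limma test of adult CR minus adult control. The difference of differences was -3.49 for Sphk2, -2.71 for Dbp, -2.51 for Per3, -1.46 for Per2, -1.34 for Tef and -1.18 for Cry2.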

How the results depend on the processing

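All counts are of genes called for ZT16 against ZT4 in adult CR mice unless another comparison is named, and the cause of a change in count was not tested unless the number of genes or arrays changed by construction. The 27 calls (5 higher, 22 lower) became 50 (44 lower) with genes under the median level not tested, 57 (50 lower) with the mean of all probe sets, 49 (43 lower) with median centring, 44 (38 lower) with Xist as a covariate and 169 (23 higher, 146 lower) with array weights, whose fit stopped before convergence. Quantile normalization repeated gave 39, of which 12 were higher. The 11 arrays alone gave 7 (2 higher, 5 lower), the 30 adult CR arrays 89 (9 higher, 80 lower) and an adjusted p under 0.01 12 (3 higher, 9 lower). Leaving out each array in turn gave 7 to 59 (3 to 8 higher, 4 to 51 lower), and leaving out both arrays at the ends of the first component, an alternative chosen after seeing the data, gave 5 (2 higher, 3 lower). With the replicate number as a block over the 11 arrays, 309 were called (37 higher, 272 lower), 23 of the 27 among them. Slc24a3, Cpt1a, Arrdc4 and Mab21l4 were not called there. No ZT16 array has number 6, so ZT4 replicate 6 added nothing to the differences of that fit. Same-numbered arrays deviated together with correlations of 0.509, 0.328, 0.308, -0.0338 and 0.637 for numbers 1 to 5. For ZT16 replicates 1 to 5, the ZT4 array that correlated best was replicate 1, 1, 3, 6 and 5. For numbers 1 to 5 the first component was 11.7, 4.52, -12, -18.5 and -35.7 at ZT16. At ZT4 it was 42.2, 14.7, 10.5, -0.254 and -26.3, so over numbers 1 to 5 it fell in their order at both time points. ZT4 replicate 6, at 9.17, broke that order. Xist was 4.37 to 5.05 on replicates 3 and 5 of both time points and 11.13 to 11.57 on the other arrays. The 2 arrays at the ends of the first component thus differed in Xist (4.89 on ZT16 replicate 5, 11.13 on ZT4 replicate 1). Arrays of low and of high Xist thus stood in each time point. The sex of the animals was not tested beyond this level. No label gives the numbers a meaning, so they were not taken as pairs, and the main p-values take no account of any such structure. Whether the numbers mark a shared batch was not tested. The 6 calls between diets became 10 with the mean of all probe sets and 24 with array weights, and lay between 5 and 7 with 1 array left out; no alternative called a gene between ages. Of 1844 values of named genes recomputed, 13 changed sign, all of genes not called: Clock was -0.0196 with the mean of probe sets and -0.0986 to 0.218 with 1 array left out, Sod1 0.0537 with the mean of probe sets, Mitf 0.0237 without both end arrays, and Il1rl2 0.0453 with the mean of probe sets, 0.0781 with quantile normalization, 0.0655 without both end arrays and -0.0865 to 0.0608 with 1 array left out. Array signals near background limit what the dimmest genes, such as Rsad1, can show.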
